A study of Rattus norvegicus with 34 samples.

Results

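Retinal gene expression was compared between PKD rats that had received clodronate liposomes and untreated Sprague Dawley (SD) rats. PKD rats are homozygous for a transgene coding for a truncated polycystin-2, named PKD2(HA-1/703-CMV-247) in the sample labels and driven by the cytomegalovirus promoter, and are used as a model of retinal degeneration with loss of capillaries. The comparison used 11 of the 34 rats of the series, namely all 5 in the PKD + Clodronate group and all 6 in the SD group. Treated rats received 3 µl of liposomes into the vitreous at 4 and again at 8 weeks of age, and all rats were killed at 9 weeks. The SD rats were not injected. Transgene, injection, liposomes, and clodronate therefore differed together between both groups and cannot be told apart in this comparison. The question was which part of the degeneration response of the PKD retina was present after treatment with an agent that is toxic to phagocytes.

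TaqMan microfluidic cards held 1 well for each of 44 specific and 4 reference genes, and RNA of the whole retina of each rat was run on them. The quantification cycle (Cq) is the PCR cycle at which the signal of a well crosses a threshold, so a lower Cq stands for more template. The Cq of each gene was subtracted from the average of the reference wells (*18S*, *B2m*, *Mrpl19*, *Ywhaz*). This gives levels in log2 units at full amplification efficiency, which are set to 0 at the SD mean. The levels of different genes cannot be compared on this scale. The cards held no photoreceptor gene, so the tissue could be checked by glial and myeloid markers only. Of the 528 wells of the 11 rats, 32 had no Cq, and the Cq values of the specific genes lay between 15.2 and 35.2 with a median of 24.6. The number of template molecules behind a Cq is unknown. Its part in the precision therefore cannot be told apart from that of the number of rats. In these rats, 41 wells had a Cq above 32. Here the SD rats are called U to Z and the treated rats A to E, in the order of their columns, which pairs no rats.

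When photoreceptors are damaged, Müller cells and astrocytes of the retina respond with gliosis. They raise *Gfap* and release growth factors and acute phase proteins, partly under control of interleukin-6 family cytokines and STAT3. Microglia, the resident phagocytes of the retina, migrate to the damaged layer, clear debris, and produce complement and cytokines. Clodronate, a bisphosphonate, is taken up with its liposomes by phagocytes and kills them, and cells that were spared can divide and refill the tissue.

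In the SD group, rats W and U stood apart, W by high and U by low levels. SD rat W had the highest level of its group for 13 of the 19 genes that were higher in treated rats, and its mean over these 19 genes was 1.17 log2 units above the SD mean, compared to −0.67 to 0.22 in the other SD rats and 1.35 to 2.10 in the treated rats. Its *Gfap* level was 1.80, whereas the other SD rats ranged from −0.84 to −0.06. SD rat W was also the highest of its group for 9 of the 20 genes that did not pass. SD rat U had a median of −0.66 over the 20 genes that did not pass, compared to −0.21 to 0.56 in the other SD rats. Its mean of −0.67 over the 19 higher genes was also the lowest of its group, and its *18S* Cq was the earliest. Treated rat A had the lowest level of its group for 17 of the 19 genes. Its mean reference Cq of 15.7 was the earliest of the treated rats, with 16.2 to 17.2 in the others. An early reference mean lowers all levels of a rat on the scale used. Over the 20 genes that did not pass, the median of rat A was −0.17, with −0.11 to 0.27 in the other treated rats. The part of the reference wells in the low levels of rat A was not tested. The spread of the SD group was larger than that of the treated group for all 19 higher genes and for 32 of all 41. Counts and calls that change without SD rat W are given with and without it. Without SD rat U, 20 genes passed, of which 17 were higher and 3 were lower, and *Timp1*, *Il1b*, and *Igf1* changed their call.

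Of the 41 genes with at least 3 Cq values per group, 21 passed the threshold of an adjusted p of 0.05 in limma (51.2% of the genes tested). In treated PKD rats, 19 genes were higher (46.3%) and 2 genes, *Bdnf* and *Fcer2*, were lower (4.88%). The median log2 difference over the 41 genes was 0.63, with 29 positive and 12 negative values. Without SD rat W, 22 genes passed, 20 of them higher. With only both compared groups in the fit, 16 genes passed, 15 of them higher. In exact permutation tests with adjustment over the same genes, 18 genes passed, 17 of them higher. For 9 genes the values of both groups did not overlap (22.0% of the genes tested). These were *Socs3*, *Edn2*, *Gfap*, *Fgf2*, *Lcn2*, *Lgals3*, *Tnfrsf12a*, *Sphk1*, and *Bdnf*. Without SD rat W, 15 genes did not overlap (36.6%), with *Serpina3n*, *C3*, *Chi3l1*, *Timp1*, *Cntf*, and *Itgam* in addition.

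The split between higher and lower genes depended on the scaling. When each rat was scaled to the mean of the specific genes, 22 genes passed, of which 9 were higher and 13 were lower, since this scaling moved the differences by a median of −0.88 log2 units. That mean includes the higher genes themselves and moves all genes nearly alike. The signs that turn under it therefore cannot decide which genes were lower. The 9 genes that were higher under both scalings were *Socs3*, *Edn2*, *Serpina3n*, *Gfap*, *Fgf2*, *Lcn2*, *Lgals3*, *C3*, and *Tnfrsf12a*. Both lower genes passed under both scalings.

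**Figure D1:**
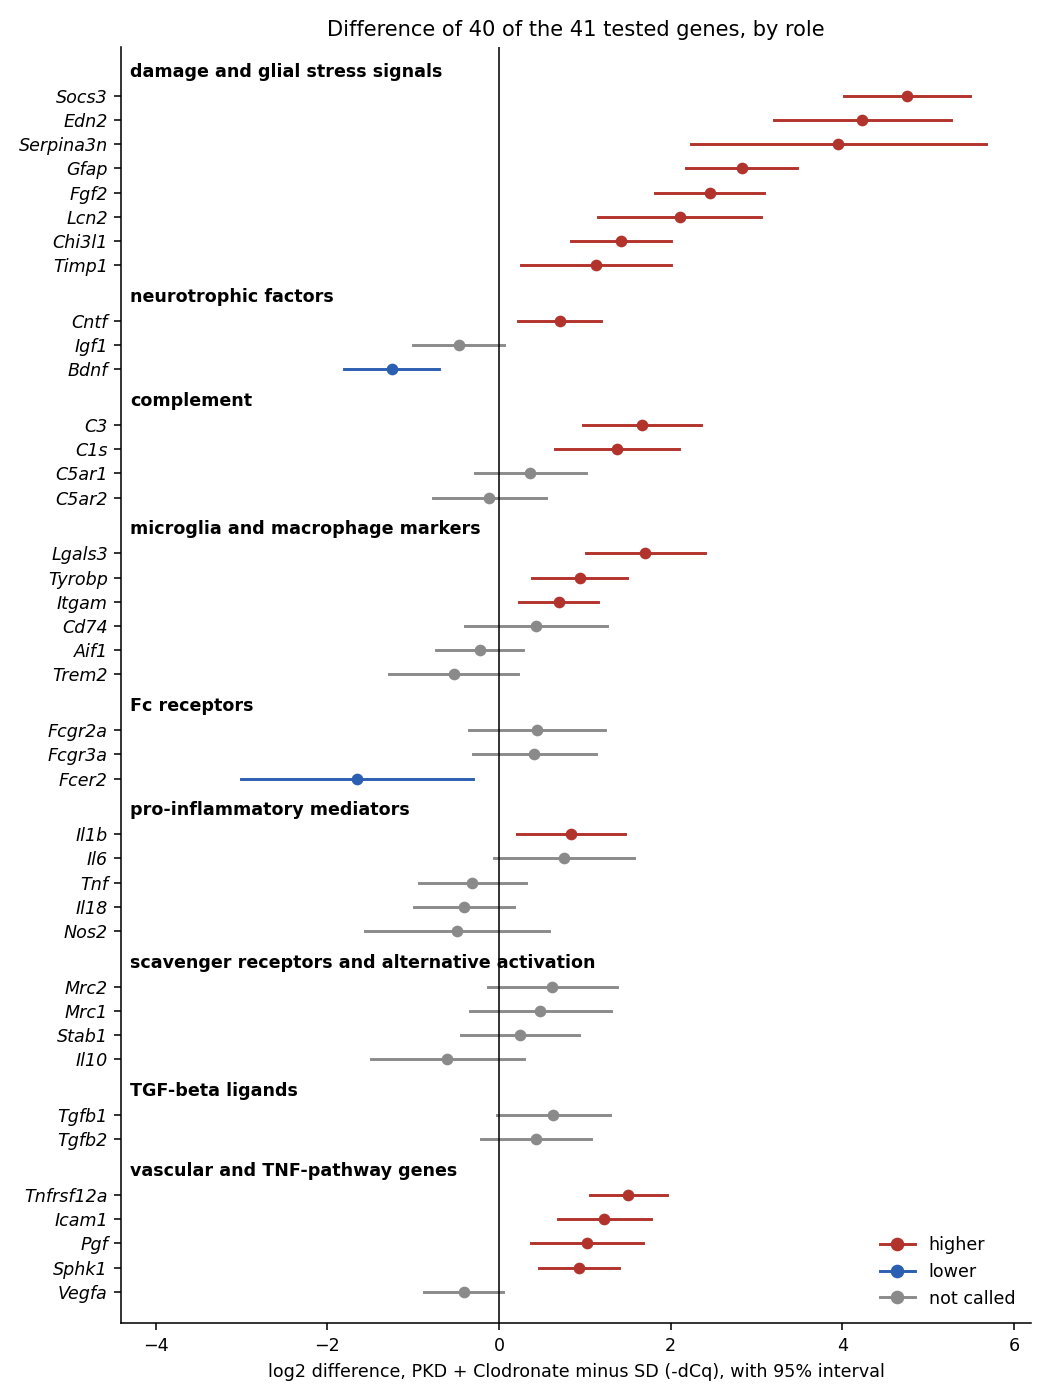
Log2 difference between PKD + Clodronate (n = 5) and SD rats (n = 6) for 40 of the 41 tested genes, grouped by role, on the −ΔCq scale to 4 reference genes. Points are estimates and lines are 95% intervals of limma, red and blue mark genes past the threshold of 0.05 after adjustment, and all 8 damage and glial stress genes lie to the right of 0. Scaled to the mean of the specific genes instead, which includes the higher genes, the points move left nearly alike, by a median of 0.88 units. With this shift, 13 of the 29 positive differences turn negative, among them *Cntf*, *Il1b*, and *Itgam* of the genes past the threshold.

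All 8 genes listed as damage and glial stress signals were higher in treated PKD than in SD rats, with a median difference of 2.64 log2 units. Of all tested genes, 46.3% were higher, and the median was 0.63. The list was drawn up with earlier results of these data known. The study had reported all of its genes except *Timp1* as higher in untreated PKD than in SD rats on these cards. The count is therefore no independent test of the list. *Socs3*, the feedback inhibitor of cytokine signaling through STAT3, was 4.12, 4.68, 5.01, 5.13, and 4.81 in treated rats A to E. In SD rats, it ranged from −1.29 to 1.83 with a median of −0.33. Every treated rat was thus more than 2 log2 units above the highest SD rat, which was W. The difference was 4.75 ± 0.36 (SE) or 26.9-fold (limma, adjusted p = 2.95e-11), the largest of all tested genes.

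*Edn2*, coding for the vasoactive peptide endothelin-2 that injured photoreceptors express, was 3.77, 3.80, 4.30, 4.47, and 4.82 in rats A to E. The SD rats ranged from −2.21 to 2.73 with a median of −0.06. The groups did not overlap, and the SD rats were spread over a wider range than the treated rats. The difference was 4.23 ± 0.50 (SE, adjusted p = 1.16e-07). *Serpina3n*, a secreted serine protease inhibitor of reactive astrocytes, was 2.75 in rat A and 4.05, 4.32, 4.50, and 4.16 in rats B to E. In SD rats, it ranged from −2.65 to 4.04 with a median of −0.61. SD rat W alone overlapped with the treated group for this gene, and the next SD rat was at 1.14. The difference was 3.95 ± 0.84 (SE, adjusted p = 0.000335).

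*Gfap*, the intermediate filament of astrocytes and reactive Müller cells, was 2.33, 2.93, 3.14, 2.94, and 2.78 in rats A to E. It ranged from −0.84 to 1.80 in SD rats with a median of −0.20. All treated rats were above all SD rats, and 5 of the 6 SD rats were below 0. The difference was 2.83 ± 0.31 (SE, adjusted p = 5.42e-08). *Fgf2*, a growth factor that Müller cells and photoreceptors release upon injury, was 1.99, 2.80, 2.86, 2.04, and 2.58 in rats A to E and between −0.91 and 1.67 in SD rats (median −0.24). Rats A and D were the lowest of the treated group but still above SD rat W. The difference was 2.45 ± 0.31 (SE, adjusted p = 2.68e-07).

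*Lcn2*, coding for the iron-siderophore binding acute phase protein lipocalin-2, was 1.42, 2.11, 2.60, 2.47, and 1.94 in rats A to E. The SD rats ranged from −2.71 to 1.38 with a median of 0.47. SD rat X was far below and SD rat W just below the treated rats. The difference was 2.11 ± 0.46 (SE, adjusted p = 0.000386). *Chi3l1*, a secreted chitinase-like protein of reactive astrocytes and macrophages, was 1.05, 1.30, 1.45, 1.43, and 1.89 in rats A to E, compared to a range of −0.63 to 1.30 in SD rats with a median of −0.24. All treated rats were above the SD rats other than W. The difference was 1.42 ± 0.28 (SE, adjusted p = 0.000194), and 0.54 (adjusted p = 0.0749) with the specific genes as scaling. *Timp1*, an inhibitor of matrix metalloproteinases, differed by 1.13 ± 0.42 (SE, adjusted p = 0.0271), and was called in 6 of 11 fits that each left out 1 rat. Its difference was 0.84 (adjusted p = 0.0832) without SD rat U, 1.02 (0.0604) without V, 1.11 (0.0512) without B, 1.09 (0.0524) without D, and 0.91 (0.0939) without E. It also did not pass in exact permutation tests (adjusted p = 0.135), with only both compared groups in the fit (0.08005), without *18S* (0.99, adjusted p = 0.0594), or with the specific genes as scaling (0.25, adjusted p = 0.532).

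**Figure D2:**
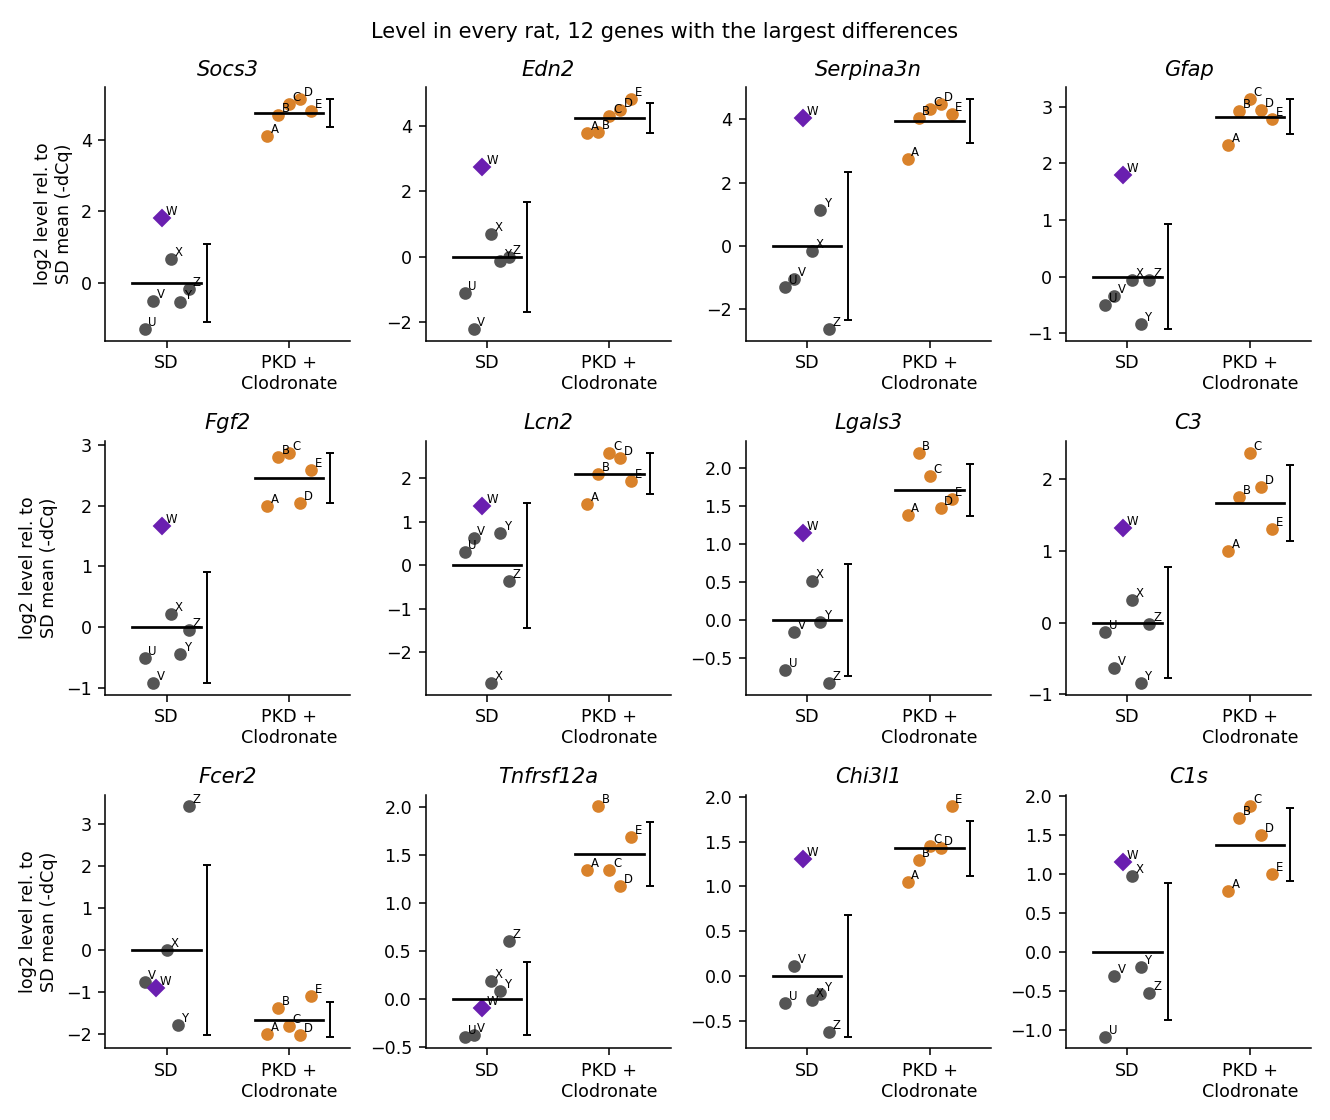
Log2 level relative to the SD mean in each SD rat (grey, U to Z, purple diamond for W) and each PKD + Clodronate rat (orange, A to E) for the 12 genes with the largest absolute differences. Horizontal lines are group means and bars are the SD, and *Fcer2* had no Cq in rat U. SD rat W is the highest SD rat in 10 of the panels, all except *Fcer2* and *Tnfrsf12a*.

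Among the other microglia and macrophage genes, 3 of 6 markers were higher in treated rats, 3 did not pass the test, and the median difference was 0.56. Both the count and the median were close to those of all tested genes (46.3% higher, median 0.63). *Lgals3*, coding for galectin-3 of phagocytosing cells, was 1.38, 2.20, 1.89, 1.47, and 1.59 in rats A to E and between −0.83 and 1.15 in SD rats (median −0.09). The groups did not overlap. The difference was 1.71 ± 0.34 (SE, adjusted p = 0.000194). *Tyrobp*, the signaling adaptor of *Trem2* and other myeloid receptors, differed by 0.94 ± 0.27 (SE, adjusted p = 0.00468), and by 0.058 (adjusted p = 0.783) with the specific genes as scaling. *Itgam*, the alpha chain of complement receptor 3, differed by 0.70 ± 0.22 (SE, adjusted p = 0.0112), but by −0.19 with the specific genes as scaling. It did not pass in the exact permutation tests (adjusted p = 0.0514) or with only both compared groups in the fit (adjusted p = 0.0681).

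The remaining microglial markers did not pass the test. *Aif1*, which codes for Iba1 of microglia and macrophages, differed by −0.22 log2 units (95% interval −0.73 to 0.28, adjusted p = 0.402). *Trem2*, a lipid-sensing receptor of microglia, differed by −0.53 (−1.28 to 0.22, adjusted p = 0.234), and *Cd74*, the invariant chain of class II antigen presentation, by 0.43 (−0.39 to 1.25, adjusted p = 0.341). *Trem2* was −1.16, −0.77, −1.21, 0.71, and −0.22 in treated rats A to E and ranged from −0.69 to 0.76 in SD rats. Rats A, B, and C were below all SD rats, and D and E lay within their range. In fits that each left out 1 rat, the difference was −0.36 to −0.036 for *Aif1*, −0.84 to −0.36 for *Trem2*, and 0.10 to 0.69 for *Cd74*. None of these markers passed in any of these fits. Scaled to the mean of the specific genes, *Aif1* (−1.11, adjusted p = 0.000283) and *Trem2* (−1.41, adjusted p = 0.000748) passed as lower. Thus, none of these markers passed as lower than in SD rats at 9 weeks when the reference genes were used. The intervals reached down to −0.73 for *Aif1* and −1.28 for *Trem2*. Whether phagocytes were depleted was not tested on the cards, and these markers do not establish it. The study counted stained microglia in whole retinas instead. It reported no effect of clodronate on their total number in PKD rats and more CD74-positive microglia. With control liposomes, it reported more of both than in uninjected and clodronate-treated rats. In RNA of whole retina, fewer cells of a type and less RNA per cell cannot be told apart.

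In the complement list, 2 of 4 genes were higher (median difference 0.87), next to 46.3% of all tested genes. *C3*, the central component that opsonizes debris, was 1.00, 1.75, 2.38, 1.89, and 1.30 in rats A to E and between −0.85 and 1.32 in SD rats (median −0.08). Rats A and E lay in the range of SD rat W, the remaining SD rats did not exceed 0.32. The difference was 1.67 ± 0.33 (SE, adjusted p = 0.000194). *C1s*, a protease of the first complement component, was 0.78, 1.72, 1.87, 1.502, and 1.00 in rats A to E, compared to −1.09 to 1.15 in SD rats (median −0.25). SD rats W and X overlapped with treated rats A and E. The difference was 1.37 ± 0.35 (SE, adjusted p = 0.00167), and 0.49 (adjusted p = 0.0577) with the specific genes as scaling. The receptors of the anaphylatoxin C5a, *C5ar1* (0.36, adjusted p = 0.318) and *C5ar2* (−0.11, adjusted p = 0.727), did not pass, and *C5ar2* was lower with the specific genes as scaling (−0.99, adjusted p = 0.00338).

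Of the vascular and TNF-pathway genes, 4 of 5 were higher, with a median difference of 1.03, next to 46.3% and 0.63 for all tested genes. *Tnfrsf12a*, the receptor of TWEAK, was 1.34, 2.004, 1.34, 1.17, and 1.68 in rats A to E. It ranged from −0.40 to 0.60 in SD rats with a median of −0.01. The groups did not overlap, and SD rat W was in the middle of its group at −0.10. The difference was 1.51 ± 0.22 (SE, adjusted p = 2.31e-06). *Icam1*, the leukocyte adhesion molecule of endothelium and Müller cells, differed by 1.23 ± 0.26 (SE, adjusted p = 0.000335). *Pgf*, a ligand of VEGF receptor 1, differed by 1.03 ± 0.32 (SE, adjusted p = 0.00884). *Sphk1*, which forms sphingosine-1-phosphate, differed by 0.93 ± 0.23 (SE, adjusted p = 0.00126), and all treated rats were above all SD rats. The last 3 genes did not pass when scaled to the mean of the specific genes (0.34, 0.14, and 0.05). *Vegfa*, the hypoxia-induced endothelial growth factor, differed by −0.41 (95% interval −0.87 to 0.05, adjusted p = 0.130), and passed as lower without *18S* (−0.56, adjusted p = 0.0435) and with the specific genes as scaling (−1.296, adjusted p = 0.000324).

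Of the 3 neurotrophic factors, 1 was lower, 1 was higher, and 1 did not pass, next to 4.88% lower and 46.3% higher of all tested genes. With the specific genes as scaling, all 3 differences were negative. *Bdnf*, a survival factor of retinal ganglion cells, was −1.07, −2.31, −1.44, −0.71, and −0.71 in treated rats A to E. The SD rats ranged from −0.41 to 0.38 with a median of 0.03. All treated rats were below all SD rats, and rat B had the lowest level. The difference was −1.25 ± 0.27 (SE, adjusted p = 0.000335). *Cntf*, a cytokine of the interleukin-6 family made by retinal glia, was higher by 0.71 ± 0.24 (SE, adjusted p = 0.0140) and turned to −0.18 with the specific genes as scaling. With only both compared groups in the fit, it did not pass (adjusted p = 0.0681). *Igf1*, a growth factor of microglia and other cells, differed by −0.47 (adjusted p = 0.133), by −0.65 (adjusted p = 0.0246) without SD rat U, by −0.61 (adjusted p = 0.0255) without *18S*, and by −1.35 under the scaling to the specific genes (adjusted p = 2.22e-07).

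*Fcer2*, the low-affinity IgE receptor and a marker of B cells, was the only one of 3 Fc receptors past the threshold, next to 51.2% of all tested genes, and was called in 5 of 11 fits that each left out 1 rat. It was measured late on the card, with Cq values of 29.0 to 34.9 in these rats and no Cq in SD rat U. The levels were −2.0015, −1.37, −1.80, −2.02, and −1.09 in rats A to E and −1.78 to 3.43 in 5 SD rats (median −0.75). The highest value belonged to SD rat Z, and the remaining SD rats did not exceed 0.00. The difference was −1.66 ± 0.66 (SE, adjusted p = 0.0366), and −0.80 (adjusted p = 0.170) without SD rat Z. The gene was also lost, with differences of −1.57 to −1.73, in each fit without SD rat X or without treated rat A, B, C, or D. In exact permutation tests, it did not pass (adjusted p = 0.0813), and with empty wells set to 40 the difference was −0.24. The receptors for IgG, *Fcgr2a* (0.44, adjusted p = 0.318) and *Fcgr3a* (0.41, adjusted p = 0.318), did not pass.

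Of the 5 pro-inflammatory mediators, only *Il1b*, coding for interleukin-1 beta, was higher by 0.83 ± 0.31 (SE, adjusted p = 0.0245), with a median difference of −0.31 for the list, next to 46.3% higher and a median of 0.63 for all tested genes. *Il1b* was 0.29, 1.22, 1.29, 0.59, and 0.77 in rats A to E and ranged from −0.87 to 0.64 in SD rats. Rats A and D lay within the range of the SD rats. The difference was 0.66 (adjusted p = 0.0686) without SD rat U, 0.74 (0.0622) without rat B, 0.72 (0.0718) without rat C, 0.83 (0.0522) with only both compared groups in the fit, 0.66 (0.0638) with sample weights, and −0.048 when scaled to the mean of the specific genes. *Il6*, the cytokine upstream of STAT3, differed by 0.75 (95% interval −0.06 to 1.57, adjusted p = 0.123), and passed as higher without SD rat X (0.97, adjusted p = 0.0425), without *B2m* (1.04, adjusted p = 0.0338), and with sample weights (1.21, adjusted p = 0.0120). It fell to 0.40 (adjusted p = 0.324) without SD rat Y, the only rat with a Cq above 35 for this gene. *Tnf* (−0.31, adjusted p = 0.363), *Il18* of the inflammasome pathway (−0.41, adjusted p = 0.234), and *Nos2*, the inducible nitric oxide synthase (−0.49, adjusted p = 0.396), did not pass. These 3 genes passed as lower with the specific genes as scaling, with −1.19 (adjusted p = 0.00338), −1.30 (0.000283), and −1.37 (0.0252). In fits that each left out 1 rat, the difference was −0.51 to −0.10 for *Tnf*, −0.49 to −0.31 for *Il18*, and −0.73 to −0.083 for *Nos2*. *Tnf* and *Il6* were measured late on the card, with Cq values of 32.7 to 34.5 and 31.8 to 35.2 in these rats.

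None of the 4 genes reported here for scavenger receptors and alternative activation passed (median difference 0.36), next to 51.2% of all tested genes. *Mrc2*, a collagen receptor, differed by 0.62 (adjusted p = 0.162), and by 0.84 (adjusted p = 0.04996) without SD rat W. *Mrc1* (0.48, adjusted p = 0.318) and *Stab1* (0.25, adjusted p = 0.491), scavenger receptors of perivascular macrophages, and the anti-inflammatory cytokine *Il10* (−0.60, adjusted p = 0.243) stayed within intervals that include 0. At an unadjusted p of 0.05, none of these 4 genes passed either, in limma or in the exact permutation tests. Without SD rat U, the differences were 0.13 for *Mrc1* and 0.00024 for *Stab1*, and likewise 0.052 for *C5ar1*, 0.088 for *Fcgr2a*, and 0.10 for *Cd74*. In fits that each left out 1 rat, the difference was −0.85 to −0.34 for *Il10* and 0.23 to 0.66 for *Fcgr3a*. When scaled to the mean of the specific genes, *Stab1* (−0.64, adjusted p = 0.0435) and *Il10* (−1.48, adjusted p = 0.00388) passed as lower. *Il10* was measured late on the card, with Cq values of 31.3 to 34.2 in these rats. *Chi3l3* and *Retnla* had no Cq in any of the 11 rats, and *Il13* had a Cq in 1 rat of each group, so none of these was tested. Of the TGF-beta ligands, neither *Tgfb1* (0.63, adjusted p = 0.112) nor *Tgfb2* (0.44, adjusted p = 0.243) passed, next to 51.2% of all tested genes. *Tgfb1* reached 0.79 (adjusted p = 0.0425) without SD rat X, 0.82 (adjusted p = 0.0449) without treated rat E, and 0.92 (adjusted p = 0.0458) without *B2m*. For the 20 genes that did not pass, the 95% interval reached 0.46 to 1.07 log2 units to either side of the estimate, so differences of that size would not have been detected reliably.

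The reference genes were compared in the same rats. The mean Cq of all 4 was 16.3 ± 0.342 (SD, n = 6) in SD rats and 16.5 ± 0.548 (n = 5) in treated rats, a difference of 0.15 cycles (exact permutation test, two-sided p = 0.571). *B2m*, the light chain of class I antigen presentation, came up 0.71 cycles earlier in treated rats (exact p = 0.0628, adjusted p = 0.314 over 5 comparisons), with 16.5 to 18.2 compared to 17.5 to 18.3 in SD rats. *18S* came up 0.58 cycles later (exact p = 0.258, adjusted p = 0.476), with Cq values of 7.84 and 8.61 in rats B and C against 6.45 to 6.84 in the other treated rats. *Mrpl19* and *Ywhaz* differed by 0.31 and 0.43 cycles (exact p = 0.381 and 0.305). *B2m* went against the other reference genes. Without *B2m* 22 genes passed, 21 of them higher and 1 lower, and without *18S* 22 genes passed, 18 higher and 4 lower.

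**Figure D3:**
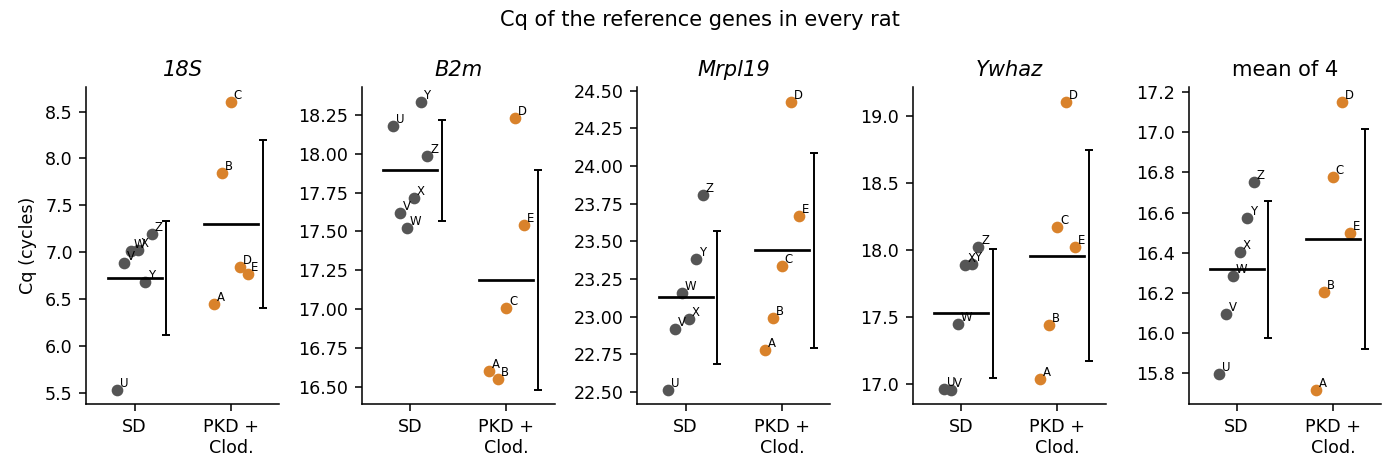
Cq in cycles of the 4 reference genes and their mean in each SD rat (grey, U to Z) and each PKD + Clodronate rat (orange, A to E), with group means and SD bars and a separate axis range per panel. The groups overlap in every panel, and *B2m* is the only gene with a lower mean Cq in treated rats.

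**Figure D4:**
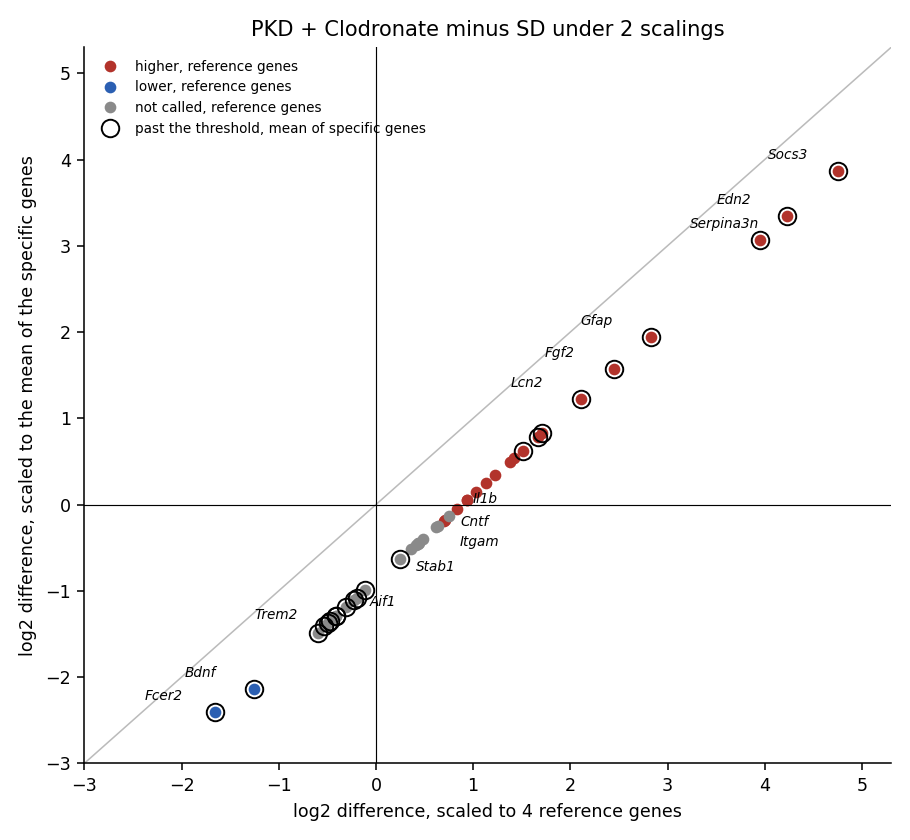
Log2 difference between PKD + Clodronate and SD rats for 41 genes with the 4 reference genes (x axis) and with the mean of the specific genes (y axis) as scaling. Fill colours give the call of the first scaling and rings the genes past the threshold under the second, the grey line marks equal values, and all points lie below it, by a median of 0.88 log2 units.

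The values of the other PKD groups stand beside these, all relative to the same 6 SD rats, which the comparisons therefore share. The largest differences from SD rats are given first. *Socs3* was higher than in SD rats by 4.22 in untreated PKD rats (n = 6), 4.44 in PKD + Controlliposomes rats (n = 6), and 4.75 in PKD + Clodronate rats. The respective differences were 4.60, 4.75, and 4.23 for *Edn2* and 2.62, 2.95, and 2.83 for *Gfap*. For *Serpina3n*, they were 4.15, 5.01, and 3.95, and for *Fgf2* 3.13, 2.73, and 2.45. All of these values passed against SD rats. *C1s* was 0.44 (adjusted p = 0.347), 1.30, and 1.37, and *Sphk1* 0.46 (adjusted p = 0.10008), 0.94, and 0.93 in the same order. *Pgf* was 0.40 (adjusted p = 0.347), 0.71, and 1.03, *Timp1* was 0.72 (adjusted p = 0.173), 1.53, and 1.13, and *Il1b* was 0.56 (adjusted p = 0.141), 0.75, and 0.83. These 5 genes and *Fcer2* (−1.34, −1.03, and −1.66) passed in clodronate-treated but not in untreated PKD rats against SD rats, where 36.6% of the 41 genes passed in untreated PKD rats and 63.4% in PKD + Controlliposomes rats. This does not show that treatment changed them, since the difference between clodronate-treated and untreated PKD rats had adjusted p-values of at least 0.391 for all 41 genes in limma, with 5 genes at an unadjusted p under 0.05. These were *C1s* (0.93), *Sphk1* (0.47), *Lgals3* (0.78), *Fgf2* (−0.68), and *Il10* (−0.97), the first 2 of them among the 6 genes above. In its own test, the study called *C1s* higher and *Fgf2* lower in clodronate-treated than in untreated PKD rats after adjustment. Why the calls differ was not examined.

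Compared to PKD + Controlliposomes rats, which had the same injections without clodronate, 2 of the 41 tested genes passed (4.88%), and both were microglial genes that were lower in PKD + Clodronate rats. *Aif1* was lower by −0.99 log2 units (adjusted p = 0.0194) and *Itgam* by −0.81 (adjusted p = 0.0278). In control liposome-treated rats, *Aif1* was 0.77 and *Itgam* 1.504 above SD rats. The other markers of the list did not pass, with differences of −0.93 for *Trem2* (adjusted p = 0.147), −0.33 for *Tyrobp* (adjusted p = 0.59996), 0.34 for *Lgals3* (adjusted p = 0.59996), and 0.17 for *Cd74* (adjusted p = 0.871). Whether the markers differed from each other was not tested.

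**Figure D5:**
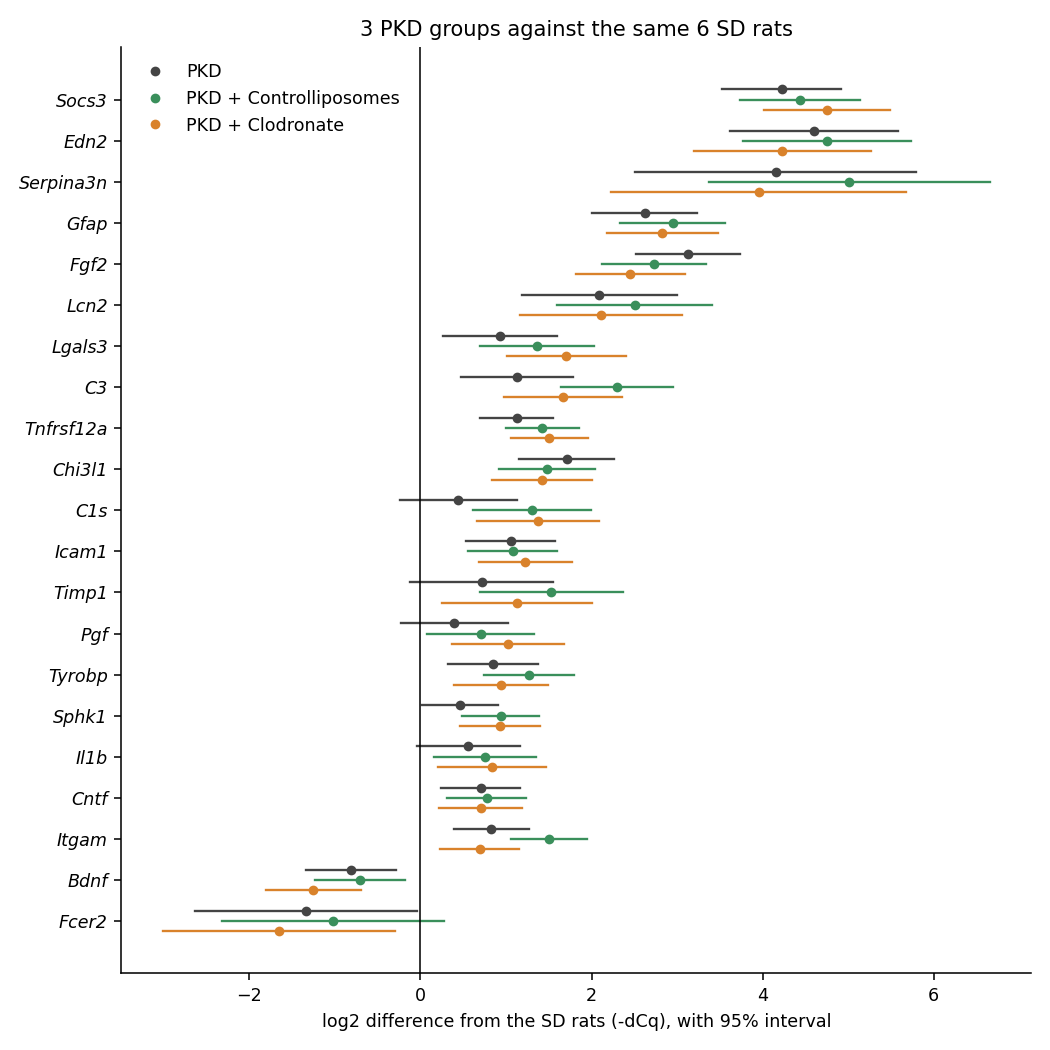
Log2 difference from the same 6 SD rats for the 21 genes past the threshold in PKD + Clodronate rats (orange), with PKD (dark grey) and PKD + Controlliposomes rats (green). Points are estimates and lines 95% intervals of limma on the −ΔCq scale, and for *C1s*, *Timp1*, *Pgf*, and *Il1b* the interval of untreated PKD rats includes 0.

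*Socs3*, the gene with the largest difference, is a target of STAT3, and the promoters of the genes on the card were therefore searched for the core of the STAT motif, TTCNNNGAA, which is its own reverse complement. RefSeq promoters of build GRCr8, each with 250 bases before and 50 after a gene's start, were at hand for 16 of the 19 higher genes (18 promoters). The core was found in 6 of these 18 promoters, and in 8.87% of all 33469 rat promoters. In genes that did not pass, it was found in 1 of 16 promoters, that of *C5ar2*. The promoters of *Socs3* and *Gfap* held no match. The following windows show the match in capitals with 15 bases on each side, on the strand of the gene, so that the differing inner bases can be compared.
*Serpina3n*, chr6:129088254-129088292, plus strand, first base of the match 123 bases before the start: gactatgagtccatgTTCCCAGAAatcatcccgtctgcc
*Fgf2*, chr2:122164311-122164349, plus strand, first base of the match 128 bases before the start: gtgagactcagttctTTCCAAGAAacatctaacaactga
*Tnfrsf12a*, chr10:13213761-13213799, minus strand, first base of the match 136 bases before the start: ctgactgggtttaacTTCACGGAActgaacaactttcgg
*Icam1*, chr8:27829723-27829761, plus strand, first base of the match 107 bases before the start: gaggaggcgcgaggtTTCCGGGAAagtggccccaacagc
*Sphk1*, chr10:102258746-102258784, plus strand, first base of the match 214 bases before the start: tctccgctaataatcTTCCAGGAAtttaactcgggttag
*Itgam*, chr1:192089472-192089510, plus strand, first base of the match 105 bases before the start: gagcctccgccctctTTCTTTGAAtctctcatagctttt

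*Serpina3n* and *Fgf2*, with 3.95 and 2.45 log2 units, had larger differences than *Tnfrsf12a*, *Icam1*, *Sphk1*, and *Itgam*. *Sphk1* has 3 listed starts, and only 1 of them held the match. *Bdnf*, which was lower, has 6 listed promoters and 1 held the same core. Further motifs searched on both strands were the STAT core with a 4-base spacer, TTCNNNNGAA (2 of the 18 promoters, those of *Gfap* and *Sphk1*, and 7.28% of all promoters), the AP-1 site TGACTCA or TGAGTCA (2 of 18, *Cntf* and *Sphk1*, 4.63%), the cAMP response element TGACGTCA (0 of 18, 1.83%), and the NF-kappaB motif (2 of 18, *Lcn2* and *Socs3*, 4.18%). In the 16 promoters of genes that did not pass, these motifs were found in 0, 1, 1, and 3 promoters in the same order. These matches describe sequence only, binding was not measured on the cards.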

How the data were processed

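Total RNA of the retina of single rats was reverse transcribed, pre-amplified for 14 cycles, and measured on TaqMan microfluidic cards with a maximum of 40 cycles. Cq values of all wells, deposited by the authors in cycles, another unit than counts or intensities, were not normalized. They also deposited signed fold changes between groups, which were not used. Wells were named by matching their Cq values to the gene list in the study's supplement, within 6e-05 cycles, for all 48 wells. Groups came from the sample labels and the supplement's sample list, and 11 of 34 columns without a group were not used.

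Expression was the mean Cq of 4 reference genes minus that of the gene, with empty wells left out. Genes with at least 3 values in each group were fitted with limma 3.58.1 (lmFit, eBayes; statmod 1.5.0, R 4.3.3) over the SD group and 3 PKD groups (untreated, Clodronate, Controlliposomes), which share 1 estimate of the spread. P-values were two-sided with Benjamini–Hochberg adjustment over 41 genes. Two-sided exact permutation tests used all splits of 5 and 6 rats, with 0.00216 as the smallest p they can give. The procedure was tested on simulated data. Figures used matplotlib 3.10.9 (Python 3.11.15).

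All genes past the threshold were named, with the value in every rat for the 12 with the largest absolute difference, and the other genes were given by list, except 1 tested gene that is not reported here. The lists were damage and glial stress signals, neurotrophic factors, complement, microglia and macrophage markers, Fc receptors, pro-inflammatory mediators, scavenger receptors and alternative activation, TGF-beta ligands, and vascular and TNF-pathway genes. The comparison, the lists, and the rules were chosen with earlier results of these data known. *Bdnf*, *Il1b*, and *Trem2* are given rat by rat for reasons seen in their values, and SD rats W and U were singled out after their values were seen. Nothing states whether rats shared a litter, so p-values measure the spread between these rats. In limma, this spread is pooled over 4 groups per gene, although the groups differed in spread. For *Socs3*, the standard deviation was 1.10 in the SD group. It was 0.26, 0.40, and 0.13 in the untreated, Clodronate, and Controlliposomes PKD groups. Standard errors of differences from SD rats can therefore be too small for such genes, and their p-values too low. Alternatives were to leave out each reference gene, to scale to the mean of the specific genes, to give empty wells a Cq of 40, to omit late wells (above 35 or 32), to keep genes with a Cq in every rat, to restrict the fit to both compared groups, to fit with an ordinary linear model, a robust prior, sample weights, or exact tests, and to leave out each rat.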

Additional observations from a re-analysis of the deposited data

Results flagged for a closer look

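In 92 groups of 5 or 6 values (41 genes and 5 reference measures in both groups of rats), 7 had a value far from the others of its group by Dixon's test, where chance alone gives about 4.6. Treated rat A had a *Serpina3n* level of 2.75 log2 units above the SD mean, with 4.05 to 4.50 in the other treated rats. SD rat W had a *Gfap* level of 1.80, with −0.84 to −0.06 in the other SD rats. SD rat U was low for *Mrc1* (−1.76, others −0.05 to 0.81), *Fcgr2a* (−1.76, others 0.20 to 0.55), and *C5ar1* (−1.55, others 0.04 to 0.72), and its *18S* Cq was 5.53, with 6.68 to 7.19 in the other SD rats. An early *18S* well lowers all levels of a rat on the scale used, and its part in the 3 low genes was not tested. Treated rat D had a *Nos2* level of −2.12, with −0.29 to 0.18 in the other treated rats.

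The untested gene *Il13* had a Cq of 15.2 in treated rat B, the lowest Cq of any specific gene in these 11 rats. SD rat U was the only other of the 11 rats with a Cq for this gene, at 33.3.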

How the results depend on the processing

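Of 1035 gene values under the alternatives, 960 kept their direction and their side of the threshold, 36 lost the threshold in the same direction, 20 gained it, and 19 changed sign. With the mean of the specific genes as scaling, the sign changed for *Cntf* (−0.18), *Il1b* (−0.048), *Itgam* (−0.19), *Stab1* (−0.64), *C5ar1* (−0.52), *Cd74* (−0.45), *Fcgr2a* (−0.44), *Fcgr3a* (−0.47), *Il6* (−0.13), *Mrc1* (−0.40), *Mrc2* (−0.26), *Tgfb1* (−0.25), and *Tgfb2* (−0.45), of which the first 3 were past the threshold with the reference genes and *Stab1* with the specific genes. Without *B2m*, it changed for *Aif1* (0.062) and *C5ar2* (0.17), and *C5ar2* also turned to 0.017 with sample weights and to 0.023 with only the compared groups without SD rat W. The scaling to the mean of the specific genes left 9 higher and 13 lower genes. The number of lower genes was 4 without *18S*. It was 1 without *B2m*, with empty wells at 40, without Cq values above 32, with genes that had a Cq in every rat, with only the compared groups, with an ordinary linear model, with exact permutation tests, and with only the compared groups without SD rat W, a setting chosen after seeing the data. *Bdnf* stayed in all of these. With only the compared groups, 16 genes passed, and 20 without SD rat W. Leaving out 1 rat at a time gave 18 to 22 genes, 17 to 21 higher and 1 to 3 lower, with differences of −0.26 to 0.023 for *C5ar2*. Of the 21 genes past the threshold, 10 were lost in none of the alternatives. No paired analysis was possible because the groups were made of different rats. The columns carry animal numbers and not the replicate numbers of the labels, so they were tied to groups only. The depth behind a Cq is unknown.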
